A study of Mus musculus with 4 samples.

Results

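Regions of histone H4 acetylation that were called in LPS-treated wt macrophages and in no other library are described here. They were chosen by merging overlapping or touching peaks of the 4 deposited peak lists into regions and keeping those with a peak from the LPS-treated wt list alone. This gave 4734 of 62481 regions (7.58% of all regions), and 210 of the 4734 (4.44%) had a score of 200 or more. All of these regions consisted of a single peak. Acetylated H4 was mapped by chromatin immunoprecipitation and sequencing in primary bone marrow-derived macrophages from C57BL/6 mice on day 7 of differentiation, with 1 library per group. The groups were HDAC3 -/- cells given LPS at 100 ng/ml for 4 h (LPS-treated HDAC3 KO), HDAC3 +/- cells given the same (LPS-treated wt), HDAC3 -/- cells without treatment (untreated HDAC3 KO) and HDAC3 +/- cells without treatment (untreated wt). The cells labelled wild type therefore carried 1 HDAC3 allele, and the sources used here do not say how the gene was deleted or how many animals gave marrow.

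Acetyl groups on the tail of histone H4 are placed by histone acetyltransferases and removed by histone deacetylases, and the mark is found at active promoters and enhancers. HDAC3 is the catalytic deacetylase of the NCoR and SMRT corepressor complexes, which are recruited to genes by sequence-specific factors. LPS, from the outer membrane of Gram-negative bacteria, is sensed by TLR4 and leads macrophages to acetylate many enhancers and promoters of inflammatory and interferon-response genes. In wt cells a region of the kind described here gained a call with LPS, while in HDAC3 KO cells no peak was listed there under either treatment. The calls in all 4 lists chose these regions, so their presence in LPS-treated wt and absence elsewhere is the choice itself and is not a result. With 1 library per group no difference between conditions could be tested against a spread between replicates. Intervals given in brackets are exact 95% (Clopper-Pearson) intervals that cover counting error only, and neighbouring regions are not independent.

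The lists held 45589 peaks over 50.4 Mb in LPS-treated HDAC3 KO, 39550 over 37.4 Mb in LPS-treated wt, 41956 over 36.4 Mb in untreated HDAC3 KO and 48706 over 35.4 Mb in untreated wt. The LPS-treated HDAC3 KO list, in which the regions had no peak, was thus the widest of the 4. Read depth was unknown, and the number of calls depends on it. In chromatin from whole cultures, fewer cells with the mark and less of the mark per cell cannot be told apart. Each peak carries a score given by the authors, never below 50 in LPS-treated wt, which is used here within a list.

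Most of these regions were weak. Of the 4734, 2806 scored 50 to 75, 943 scored 75 to 100, 775 scored 100 to 200, 196 scored 200 to 500 and 14 scored 500 or more. When peaks up to 500 bp apart were merged, 2715 regions, 133 of them strong, were left in place of 4734 and 210. The median score of the 4734 was 68.7 and their median width was 434 bp. Regions gained in both genotypes, with a peak in both LPS-treated lists and in neither untreated list, numbered 4101. Their median LPS wt score was 109, and the widest LPS wt peak of each had a median width of 629 bp. Regions with a peak in all 4 lists had a median score of 306 in LPS-treated wt, and the widest LPS wt peak of each had a median width of 1050 bp. Of all regions that held a LPS wt peak, 43.5% scored 200 or more, against 4.44% of those called there alone. A region with several LPS wt peaks takes the highest of their scores. Of single LPS wt peaks, 39.6% scored 200 or more. The 210 strong regions (score 200 or more) had a median score of 266 with quartiles of 228 and 336, and a median width of 992 bp with quartiles of 732 and 1195 bp. The 4524 weak regions had a median score of 67.3 and a median width of 425 bp.

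The share of regions called in LPS-treated wt alone fell with score. Among all 32325 regions that the LPS-treated wt list contributed to, it was 14.6%, and among the 14051 that scored 200 or more it was 1.49%. It was 38.0% (36.9 to 39.2%) at scores of 50 to 75 and 0.21% (0.11 to 0.35%) at scores of 500 or more. Every list had regions called nowhere else, and their share fell with score in all 4 lists. Regions called in LPS-treated HDAC3 KO alone numbered 9054 (22.8% of the regions with a peak in that list). There were 5164 (15.8%) for untreated HDAC3 KO and 7337 (20.1%) for untreated wt. The lists differed among strong regions: the share called alone was 3.45% for LPS-treated HDAC3 KO (580 regions), 1.49% for LPS-treated wt (210), 0.490% for untreated HDAC3 KO (60) and 0.765% for untreated wt (99). Both LPS-treated lists thus had a larger share of strong regions without a partner than both untreated lists. Scores depend on depth and input, so a score of 200 need not mean the same in 2 lists.

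**Figure D1:**
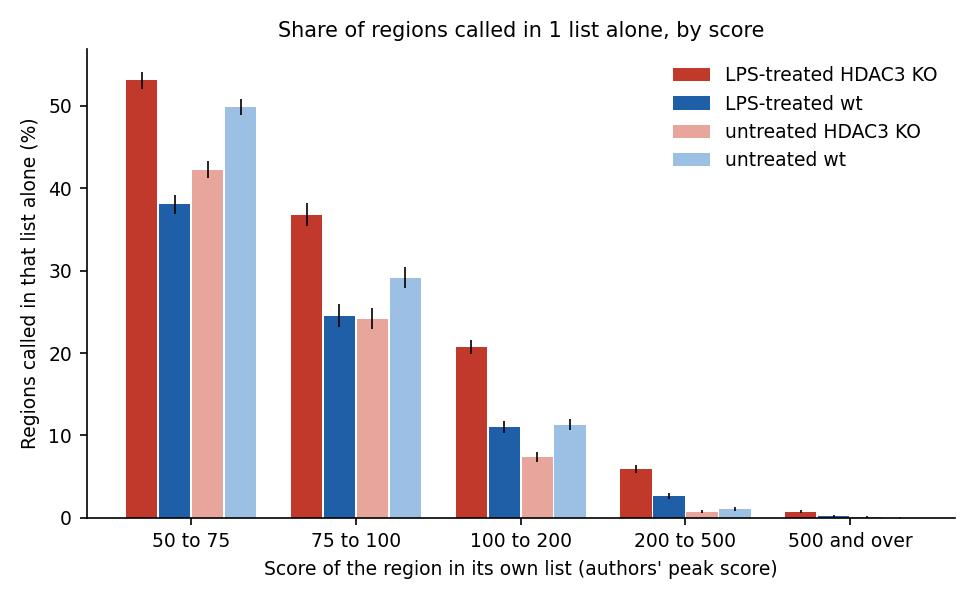
Share of the regions with a peak in a list that had a peak in that list alone, in percent (y axis), by the region's score in that list (x axis); bars are the 4 libraries and error bars are exact 95% intervals for counting error. The share in LPS-treated wt falls from 38.0% at scores of 50 to 75 to 0.21% at 500 or more, and from a score of 200 upward both LPS-treated libraries lie above both untreated ones.

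The same held when the regions were set against everything gained with LPS in wt. Gains in wt, meaning a call with LPS that untreated wt lacked, numbered 10096 regions (16.2% of all regions), and the 4734 made up 46.9% (45.9 to 47.9%) of them. The share was 62.8% (61.3 to 64.2%) at scores of 50 to 75, 51.3% at 75 to 100, 34.3% at 100 to 200, 17.4% at 200 to 500 and 3.53% (1.94 to 5.85%) at 500 or more. Regions gained in both genotypes made up 26.6% of the wt gains at scores of 50 to 75 and 78.3% (74.0 to 82.3%) at 500 or more. Of the 1525 wt gains that scored 200 or more, 210 (13.8%, 12.1 to 15.6%) were called in LPS-treated wt alone and 1080 (70.8%, 68.5 to 73.1%) were gained in both genotypes. In the mirror comparison, regions called in LPS-treated HDAC3 KO alone were 54.9% of the regions gained with LPS in HDAC3 KO. That share was 71.4% at scores of 50 to 75 and 8.40% (6.40 to 10.8%) at 500 or more.

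The highest-scored region lay at chr4:124467406-124469633 (mm9, as are all positions). It was 2228 bp wide and scored 1973, which ranked it 819 among the 39550 peaks of the LPS-treated wt list. No gene is named at this or any other region, because the gene annotation used here is on another genome build. Each list had a peak about 9 to 10 kb away: the nearest lay 9627 bp off in LPS-treated HDAC3 KO (score 579), 9686 bp off in LPS-treated wt (494), 9241 bp off in untreated HDAC3 KO (366) and 9552 bp off in untreated wt (320). The neighbouring site was therefore called in every library, and the 2228-bp region was called in LPS-treated wt alone.

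The next 2 high scores came from unlike surroundings. The region at chr12:93040916-93042870 scored 1275, and another at chr12:93042998-93044265, 127 bp further on, scored 635. A LPS wt peak of 2497 bp on the other side scored 557 and overlapped a small LPS-treated HDAC3 KO peak (438 bp, score 59.7), which put it among the regions gained in both genotypes. No untreated peak lay within 25 kb of these regions. Within 25 kb of the first of them, region included here and at the regions that follow, peaks covered 0.44 kb in LPS-treated HDAC3 KO and 6.57 kb in LPS-treated wt. The region at chr18:64055290-64057469 scored 1003 and lay at the edge of an acetylated stretch that all 4 libraries shared. Its nearest peak lay 1665 bp off in LPS-treated HDAC3 KO (score 90.1), 2882 bp off in untreated HDAC3 KO (104) and 3093 bp off in untreated wt (190).

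On chromosome 2, a run of LPS wt peaks had almost no counterpart in the other libraries. The region at chr2:10899955-10902311 scored 885, and the region at chr2:10895921-10898044, of 2124 bp, scored 383. Both are among the 5 widest of the 4734. Within 25 kb of the first, peaks covered 0 kb in LPS-treated HDAC3 KO, 10.4 kb in LPS-treated wt, 0 kb in untreated HDAC3 KO and 0.63 kb in untreated wt. The nearest LPS-treated HDAC3 KO peak lay 32152 bp away, and the nearest untreated HDAC3 KO peak lay 211612 bp away.

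The other 5 of the 10 highest-scored regions ranged from lone peaks to parts of longer runs. The region at chr15:79006835-79008550 scored 869, and the nearest peak of another list lay 13274 bp away. The region at chr11:81427012-81428002 scored 811 and stood alone, with the nearest peak of any other list 358663 bp away and the next LPS wt peak 381805 bp away. The region at chr15:82087046-82088785 scored 786, with a 298-bp peak of untreated wt 11854 bp away as its nearest from another list. The region at chr12:33962521-33964033 scored 743, and peaks within 25 kb of it covered 1.73 kb in LPS-treated HDAC3 KO against 7.01 kb in LPS-treated wt. The region at chr9:122236225-122237573 scored 702 in surroundings called in all libraries, where peaks within 25 kb covered 7.99 kb in LPS-treated HDAC3 KO, 7.07 kb in LPS-treated wt, 2.96 kb in untreated HDAC3 KO and 3.24 kb in untreated wt.

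**Figure D2:**
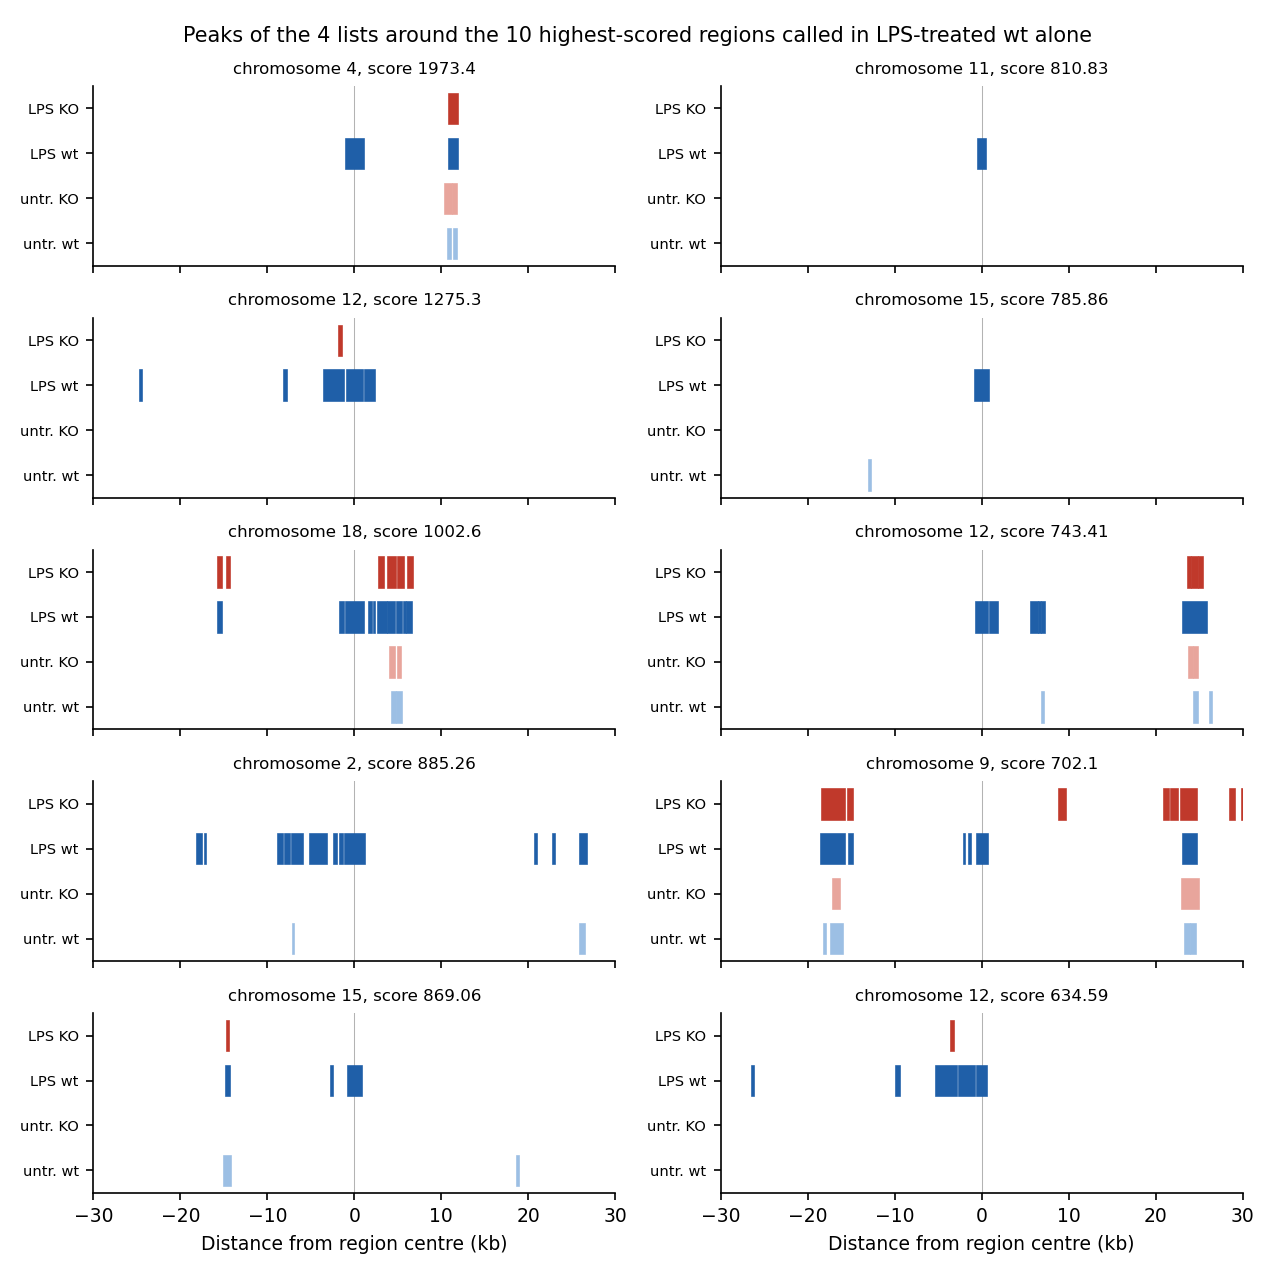
Peaks of the 4 lists (rows) within 30 kb of the centres of the 10 highest-scored regions called in LPS-treated wt alone; each block is 1 peak, the x axis is the distance from the region's centre in kb, and panel titles give the chromosome and the score. The regions range from a lone peak (chromosome 11, score 811) to part of a run of LPS wt peaks with little or nothing in the other lists (chromosome 2, score 885) and the edge of a stretch called in all 4 lists (chromosome 18, score 1003).

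Outside the first 10, the highest-scored regions with no peak of another list within 5 kb lay at chr8:123607165-123608302 (score 584), chr3:148295962-148297535 (521), chr17:32142885-32144959 (483), chr1:155191475-155192535 (475) and chr12:112825408-112826831 (466). The chromosome 8 and chromosome 12 regions each had a second LPS wt peak close by, 27 and 54 bp away, whereas the chromosome 3 region was a lone peak with the next LPS wt peak 169126 bp away. The widest region of all, at chr2:166450637-166453192 (2556 bp, score 380), lay 29 bp from a LPS-treated HDAC3 KO peak (score 66.2), 130 bp from an untreated HDAC3 KO peak (70.9), and 48 bp from an untreated wt peak (222). It was separated by 72 bp from a LPS wt peak of score 771, so it lay within an acetylated stretch that the other lists also held in part.

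The strong regions farthest from any other list, after the chromosome 11 region, lay at chr16:19152887-19153561, chr12:58565019-58566392, chr9:23943878-23945302 and chr13:110914724-110915558. Their scores were 215, 231, 358 and 259, and the nearest peak of another list lay 274345, 232963, 208670 and 191374 bp away. At the score of 200 that separated strong from weak, the 3 regions just inside scored 200.9 (chr2:119330011-119330833), 200.5 (chr12:109317119-109317581) and 200.3 (chr2:113367414-113368047). The 3 just outside scored 198.9 (chr3:126316506-126317334), 198.6 (chr2:71166298-71166898) and 198.5 (chr11:88684426-88685270). They were 823, 463 and 634 bp wide inside and 829, 601 and 845 bp wide outside. These regions were chosen for lying closest to 200, so their similar scores follow from the choice.

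Strong and weak regions differed in how close the other lists came. Of the 210 strong regions, 113 (53.8%, 46.8 to 60.7%) had no peak of another list within 5 kb, against 1700 of the 4524 weak regions (37.6%, 36.2 to 39.0%). A peak of another list lay within 5 kb of the other 97 strong regions (46.2%), but of 31 of 133 (23.3%) when peaks up to 500 bp apart were merged. The share for weak regions was not computed with that merging, so the difference between strong and weak regions was not checked under it. The median distance to the nearest peak of any other list was 5796 bp for strong and 2013 bp for weak regions. LPS-treated HDAC3 KO was the list that came nearest for 116 of the 210 strong regions (55.2%), untreated wt for 71 (33.8%) and untreated HDAC3 KO for 23 (11.0%). The lists differ in number and extent of peaks, and which list came nearest was not counted for other regions. This order is therefore not shown to be particular to the regions described. A peak of LPS-treated HDAC3 KO lay within 1 kb of 52 strong regions (24.8%, 19.1 to 31.2%), one of untreated HDAC3 KO within 1 kb of 4 (1.90%, 0.52 to 4.80%) and one of untreated wt within 1 kb of 18 (8.57%, 5.16 to 13.2%). The nearest LPS-treated HDAC3 KO peaks of those 52 regions were 49 different peaks. Their median score in that list was 101 with quartiles of 66.9 and 158, and 10 of the 49 scored 200 or more. For weak regions the shares within 1 kb were 33.3% for LPS-treated HDAC3 KO, 13.4% for untreated HDAC3 KO and 19.2% for untreated wt. The other lists' own lone regions were also compared, by another list's peak within 5 kb. In LPS-treated HDAC3 KO alone, 65.2% of strong and 65.8% of weak regions had one. In untreated HDAC3 KO alone it was 70.0% and 71.0%. A difference in the same direction was seen in untreated wt alone, at 40.4% and 56.2%.

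**Figure D3:**
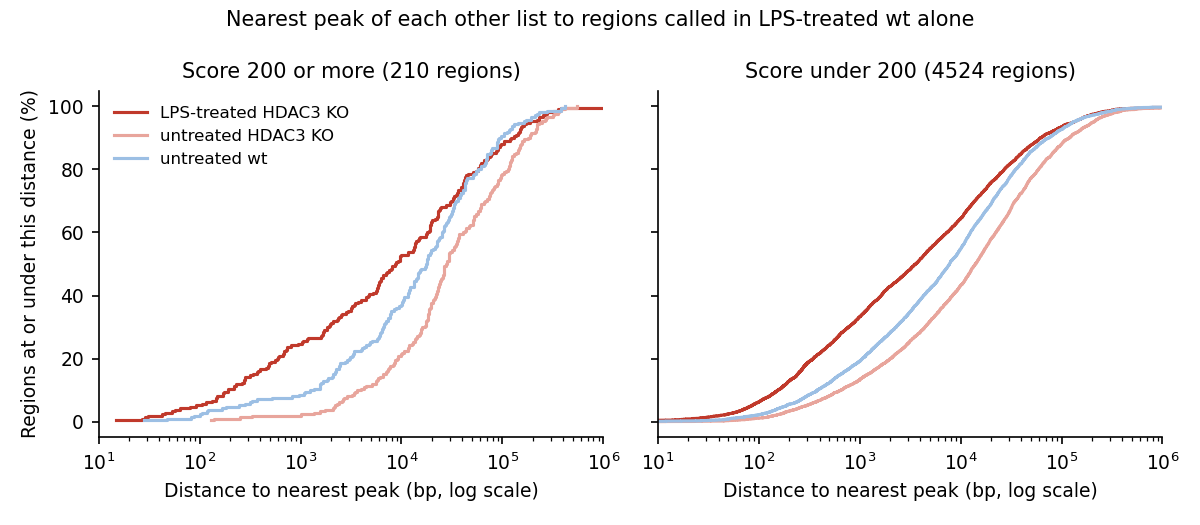
Cumulative share of regions called in LPS-treated wt alone (y axis, percent) by distance to the nearest peak of each other list (x axis, bp, log scale), for the 210 strong regions on the left and the 4524 weak regions on the right. The curve for LPS-treated HDAC3 KO rises first in both panels, with medians of 8745 bp for strong and 3584 bp for weak regions, and the curve for untreated HDAC3 KO rises last, with medians of 27695 and 13968 bp. The lists differ in number and extent of peaks.

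Many of the regions lay close to another LPS wt peak. Another region with a LPS wt peak lay within 500 bp of 127 strong regions (60.5%, 53.5 to 67.1%) and of 1920 weak regions (42.4%, 41.0 to 43.9%). For 86 strong regions (41.0%) a neighbour within 500 bp was also called in LPS-treated wt alone. For 33 (15.7%) such a neighbour was a region gained in both genotypes, and for 7 (3.33%) it was called in all 4 lists. Among weak regions the same shares were 19.4%, 9.55% and 9.31%. None of these shares within 500 bp was computed over all regions with a LPS wt peak or for the other lists. They are therefore not shown to be particular to the regions called in LPS-treated wt alone. A strong region had another strong region of the same kind within 5 kb in 46 of 210 cases (21.9%, 16.5 to 28.1%). For comparison, this was found for 113 of the 580 strong regions called in LPS-treated HDAC3 KO alone (19.5%, 16.3 to 22.9%), 6 of 60 in untreated HDAC3 KO alone (10.0%, 3.76 to 20.5%) and 2 of 99 in untreated wt alone (2.02%, 0.25 to 7.11%). Closeness within a set grows with the number of regions in it, and the sets differ in number.

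The surroundings of each region were described with that region left out, while others of the 4734 that lay nearby still counted. Within 25 kb on either side of strong regions, peaks covered a mean of 2350 bp in LPS-treated HDAC3 KO, 3901 bp in LPS-treated wt, 873 bp in untreated HDAC3 KO and 1233 bp in untreated wt. Covered length was thus 2.69 times as great in LPS-treated as in untreated HDAC3 KO, against 1.38 times over the whole lists, and 3.16 times as great in LPS-treated as in untreated wt, against 1.06 times over the whole lists. The wt ratio belongs to a contrast that chose the regions, and it was 2.11 with all 4734 left out of the LPS-treated wt list. In HDAC3 KO, covered length was greater with LPS beside 127 of the 210 strong regions and smaller beside 21, and beside the remaining 62 neither HDAC3 KO list had a peak. Around weak regions the ratio was 2.01 in HDAC3 KO and 1.87 in wt. The choice treated both HDAC3 KO lists alike, in that neither could have a call at the region. It did require a call with LPS and none without in wt, so the HDAC3 KO ratio is not independent of the choice. Around regions called in untreated wt alone, the ratio in HDAC3 KO was 1.15 for strong and 1.13 for weak regions, below that of the whole lists. Around regions gained in both genotypes it was 2.66. For regions called in LPS-treated HDAC3 KO alone it was 2.53 around strong and 2.08 around weak ones. The last 2 kinds were themselves chosen by a HDAC3 KO call with LPS and none without. Their surroundings also counted other regions of the same kind, so their choice favoured a raised ratio. They cannot show whether a raised ratio in HDAC3 KO was particular to the regions called in LPS-treated wt alone.

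Between the genotypes, much of the difference in called length beside strong regions lay in other regions of the same kind. Within 5 kb on either side, peaks covered a mean of 582 bp in LPS-treated HDAC3 KO and 1583 bp in LPS-treated wt, a ratio of 0.37, against 1.35 over the whole lists. Covered length was greater in HDAC3 KO beside 15 strong regions and smaller beside 142. Within 25 kb the ratio was 0.60. Around weak regions it was 0.83 within 5 kb and 0.99 within 25 kb. This is the contrast by which the regions were chosen, and the flanks hold others of the 4734, which have no HDAC3 KO call by choice. With all 4734 left out of the LPS-treated wt list, peaks within 5 kb of strong regions covered a mean of 582 bp in LPS-treated HDAC3 KO and 814 bp in LPS-treated wt, a ratio of 0.71, and within 25 kb the ratio was 0.90. Around weak regions it then passed 1, at 1.05 within 5 kb and 1.15 within 25 kb. Peaks called in LPS-treated HDAC3 KO alone were not left out. Around the 580 strong regions called in LPS-treated HDAC3 KO alone the ratio was 2.83 within 5 kb, with other regions of that kind counted.

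**Figure D4:**
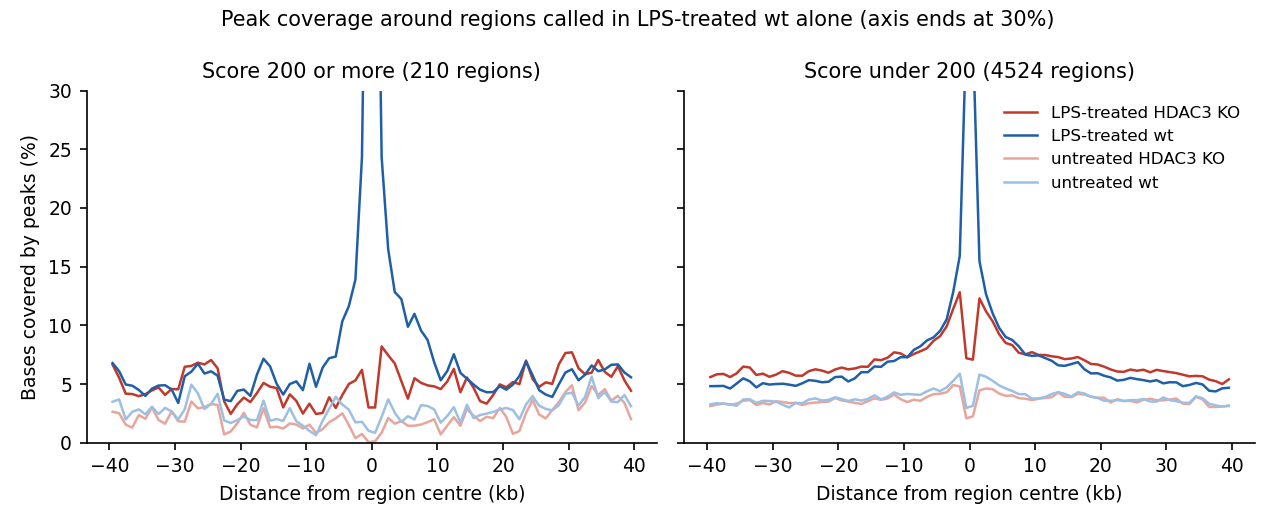
Mean share of bases covered by peaks of each list (y axis, percent, cut off at 30%) in 1-kb steps by distance from the region's centre (x axis, kb), for strong regions on the left and weak regions on the right. In the kilobase step starting 5 kb right of the centre of strong regions, coverage is 3.76% for LPS-treated HDAC3 KO, 9.88% for LPS-treated wt, 1.45% for untreated HDAC3 KO and 2.27% for untreated wt; other regions called in LPS-treated wt alone are included. In the step right of the centre of weak regions coverage is 7.08% for LPS-treated HDAC3 KO and 34.7% for LPS-treated wt, and in the step from 5 kb outward on the left it is 8.68% and 8.98%.

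A larger share of these regions than of regions called in a single untreated list lay near LPS gains that both genotypes shared. Of the 4734, 1319 (27.9%, 26.6 to 29.2%) lay within 10 kb of a region gained in both genotypes, and 162 (3.42%, 2.92 to 3.98%) lay within 10 kb of a region lost in both, which had a peak in both untreated lists only. Regions called in LPS-treated HDAC3 KO alone were similar, at 24.2% (23.4 to 25.1%) and 3.64%. Of regions called in a single untreated list, 5.05% of those in untreated HDAC3 KO alone lay near a shared gain and 20.8% near a shared loss, and in untreated wt alone these shares were 4.55% and 15.2%. Over all regions other than the 4734 and the shared gains themselves, 12.0% lay near a shared gain. Over all regions other than the 4734 and the shared losses themselves, 10.3% lay near a shared loss. The share near a shared gain was 32.9% (26.5 to 39.7%) for strong and 27.6% (26.3 to 29.0%) for weak regions. It was 25.9% at scores of 50 to 75, close to the calling limit, where it was 4.86% (4.27 to 5.50%) for regions of untreated wt alone at the same scores in their own list. With peaks up to 500 bp apart merged, 15.1% of the regions called in LPS-treated wt alone and 2.64% of those called in untreated wt alone lay near a shared gain. Shared gains rest on the same 4 lists as the regions do. Both kinds had to have a call in LPS-treated wt and none in either untreated list. Regions of a single untreated list had to have an untreated call and none with LPS. The contrast with them, also at equal scores, is therefore not independent of the choice.

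Some stretches of the genome held many of the regions. Of the 50-kb windows with at least 1, 2476 held 1 and 3 held 10, the highest number. These 3 were chr16:24750001-24800000, chr13:42350001-42400000 and chr13:42450001-42500000. In the chromosome 16 window, peaks covered 3.44 kb in LPS-treated HDAC3 KO and 10.3 kb in LPS-treated wt, and no peak was listed in either untreated library. Its 10 regions scored between 53.4 and 371, and 5 of them were strong. In the first chromosome 13 window, peaks covered 3.80 kb in LPS-treated HDAC3 KO, 13.5 kb in LPS-treated wt, 0.71 kb in untreated HDAC3 KO and 1.18 kb in untreated wt. In the second, they covered 6.60, 17.6, 0.23 and 2.08 kb in the same order of libraries. The windows were picked for holding the most of the regions, whose own length counts in LPS-treated wt. With the regions left out, LPS-treated wt had 3.94 kb in the chromosome 16 window and 5.64 and 11.3 kb in the chromosome 13 windows. Any peaks called in LPS-treated HDAC3 KO alone were kept in its values.

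Stretches reaching 3 windows to either side of these were examined after their values were seen. Across chr13:42200001-42650000, which held 25 of the regions, peaks covered 18.8 kb in LPS-treated HDAC3 KO, 42.2 kb in LPS-treated wt, 2.76 kb in untreated HDAC3 KO and 7.03 kb in untreated wt. With the 25 regions left out, LPS-treated wt had 25.2 kb. HDAC3 KO had more covered length with LPS than without in this stretch. Across chr16:24600001-24950000, with 21 of the regions, the LPS-treated libraries were closer to each other, at 76.4 kb in HDAC3 KO and 86.7 kb in wt, against 12.3 kb in untreated HDAC3 KO and 22.2 kb in untreated wt. With the 21 regions left out, LPS-treated wt had 74.3 kb, slightly under LPS-treated HDAC3 KO. In neither stretch were peaks called in LPS-treated HDAC3 KO alone left out. Over the whole lists, LPS-treated HDAC3 KO covered 1.35 times the length that LPS-treated wt did. Within the chromosome 16 stretch, the window chr16:24600001-24650000 had 24.3 kb in LPS-treated HDAC3 KO and 22.0 kb in LPS-treated wt, so the difference in calls did not extend over the whole stretch.

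**Figure D5:**
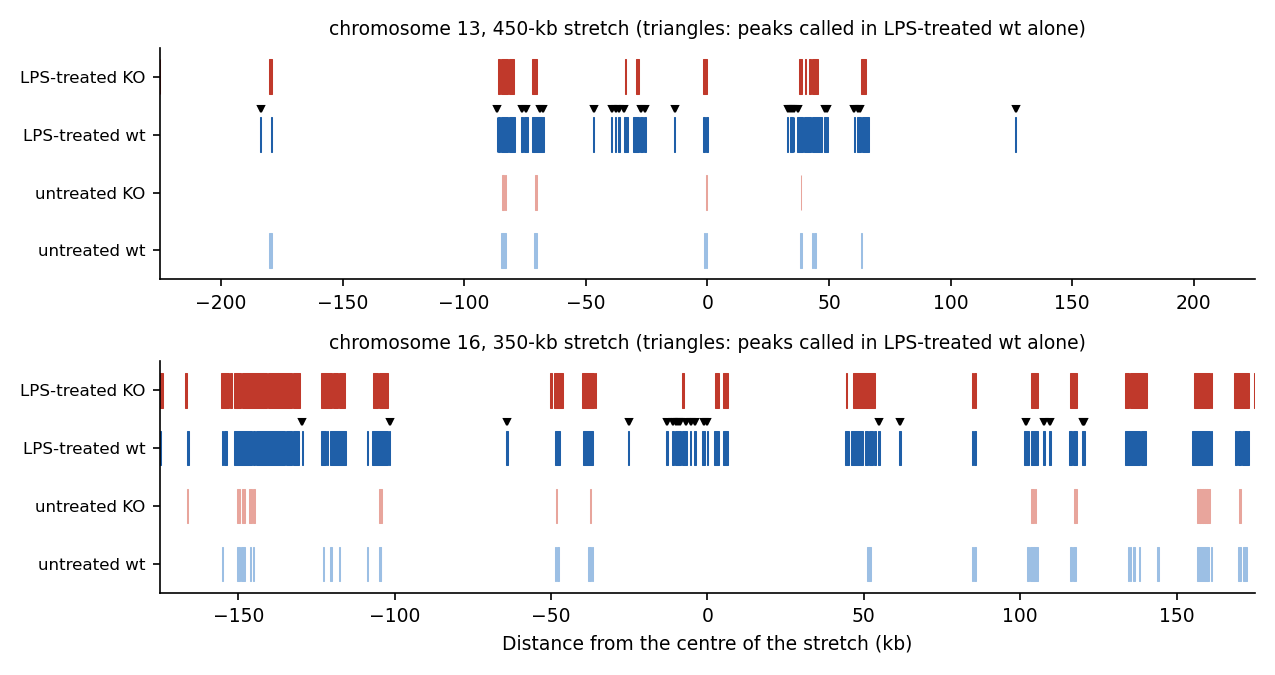
Peaks of the 4 lists (rows) across the 450-kb stretch of chromosome 13 (top) and the 350-kb stretch of chromosome 16 (bottom); the x axis is the distance from the stretch's centre in kb, each block is 1 peak, and triangles mark the 25 and 21 peaks called in LPS-treated wt alone. Both LPS-treated lists cover more of either stretch than both untreated lists.

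The regions were spread over all autosomes and the X chromosome. As a share of the regions that held a LPS wt peak they ranged among autosomes from 10.7% on chromosome 17 to 18.7% on chromosome 16. On the X chromosome the share was 19.7% (16.9 to 22.6%), against 14.5% (14.1 to 14.9%) on autosomes. The X chromosome stood close to autosomes at scores of 50 to 75, with 37.8% against 38.0%, and at 200 to 500, with 2.87% (0.94 to 6.58%) against 2.67%. Its share was higher at 75 to 100, at 31.4% (23.1 to 40.5%) against 24.3% (22.9 to 25.7%), and at 100 to 200, at 15.2% (10.7 to 20.7%) against 10.9% (10.1 to 11.6%). In both of these ranges the intervals overlapped. Sequences not placed on a chromosome held 7 of the regions.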

How the data were processed

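H4 acetylation was measured in 4 libraries, 1 per group. Bowtie and the mm9 build are named in the submitters' processing notes. Peaks were called with MACS against an input library, 1 list per library, per the file headers; the sources used here give no version or setting. The deposited score of each peak is the authors' value on an unstated scale, and read depth is unknown. Peaks of the 4 lists that overlapped by at least 1 bp or touched were merged; bedtools 2.31.1 gave the same 62481 regions. A merged region takes the highest score of its peaks in a list. Distances run between edges, and covered length beside a region leaves the region out. Intervals came from scipy 1.17.1 (Python 3.11.15, numpy 2.4.6, matplotlib 3.10.9). Counting was tested on simulated lists.

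The regions named were the 10 with the highest score, the next 5 with no peak of another list within 5 kb, the 5 widest, the 5 strong ones farthest from other lists, 3 on either side of 200 and the 3 fullest 50-kb windows. The regions, comparisons and this rule were chosen with earlier results of these data known. The gene and promoter tables used here are on GRCm38 and coordinates were not converted, so planned promoter, gene list, marker and motif counts were not run, the labelled deletion was not checked at Hdac3 itself, and no sequence is printed. Alternative settings were other merging gaps, score minimums, peak numbers, overlaps, distances and chromosomes.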

Additional observations from a re-analysis of the deposited data

How the results depend on the processing

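How many regions were called in LPS-treated wt alone depended on the rules for a call. From 4734 regions, of which 210 were strong, the numbers were 2715 and 133 when peaks within 500 bp were merged, 1906 and 114 within 2000 bp, 2337 and 544 with scores of at least 100 in every list, 1726 and 845 from each list's median score, 2335 and 1132 when each list was cut to its 20000 highest-scored peaks, 8862 and 544 when only peaks of 100 or more in the other lists counted, and 5704 and 415 when under 50% of the peak had to be covered by the other lists. The 50% rule counted single LPS wt peaks in place of merged regions, and its share of wt gains was also taken over peaks (5704 of 15812). Strong regions numbered 985 from a score of 100 and 14 from 500. In the same order of the first 7 settings, the share of wt gains was 45.5, 43.0, 36.7, 36.4, 39.8, 58.9 and 36.1% (46.9% as reported), and the share within 10 kb of a gain in both genotypes was 15.1, 6.98, 25.7, 20.3, 18.4, 26.1 and 31.4% (27.9% as reported). The fall with merging was shared by regions of untreated wt alone, at 2.64 and 1.72% with gaps of 500 and 2000 bp (4.55% without), a comparison added after seeing the data. Of the regions called in LPS-treated wt alone, 22.6% lay within 5 kb of a gain in both genotypes and 45.0% within 50 kb. Strong regions with another list's peak within 5 kb were 46.2%, but 23.3 and 14.9% with gaps of 500 and 2000 bp and 72.8% under the 50% rule; within 1 kb they were 26.7% and within 20 kb 74.3%. Part of these shifts follows from the settings. Merging across a gap leaves out every region with another list's peak within that gap. The 50% rule lets in LPS wt peaks that another list overlaps in part, and these count as near. How much of each shift this accounts for was not tested. The planned wider promoter window was not run, since no annotation of the files' build was used. Leaving out X and unplaced sequences moved none of these 5 values beyond its interval or 1.5 times.

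The ratio of LPS-treated to untreated covered length in HDAC3 KO around strong regions, 2.69, ranged from 1.86 (113 strong regions with no peak of another list within 5 kb; greater with LPS beside 44, smaller beside 16) to 2.69 over 7 alternatives added after seeing the data, and exceeded the whole-list ratio in each. With the other regions called in LPS-treated wt alone left out of that list, also added after seeing the data, the ratio of covered length in LPS-treated HDAC3 KO to LPS-treated wt beside weak regions turned to 1.05 within 5 kb (0.83 as reported) and 1.15 within 25 kb (0.99), and beside strong regions it was 0.71 (0.37) and 0.90 (0.60). No paired analysis was possible because each group had 1 library, and leaving a library out would have removed its whole group. Unknown depth limits what the absence of a peak shows.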
